A study of Mus musculus with 16 samples.

Results

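The Myc, Max and Mxd network is a group of basic helix-loop-helix leucine zipper proteins that compete for the same DNA. Its 10 member genes here were Myc, Mycn, Max, Mxd1, Mxd3, Mxd4, Mxi1, Mnt, Mlx and Mga, and every probe set that carried 1 of these symbols was taken. That gave 26 of the 45101 probe sets on the array. Tests were run on probe sets that reached a signal of 200 on 2 or more arrays. These were 21 of the 26, among 19895 in all, and each of the 10 genes had at least 1 tested probe set. The 5 that were not tested were 1417155_at of Mycn, 1422002_at of Mxd1, 1418193_at of Mnt, and 1442356_at and 1433012_at of Mga. Their highest signals on any of the 16 arrays were 186, 81.1, 130, 71.1 and 110 in that order.

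Myc and Mycn activate transcription as dimers with Max, and do so at E-boxes, short DNA sequences whose best known form is CACGTG. Mxd1, Mxi1, Mxd3, Mxd4 and Mnt also need Max as a partner, but as dimers with it they recruit the Sin3 scaffold and its histone deacetylases and repress genes at the same sites. Mga joins Max to a polycomb-type repressor complex, and Mlx is a relative of Max that pairs with the glucose-sensing Mondo proteins and with some of the Mxd group. In dividing fibroblasts Myc is known as a short-lived early response gene of growth factor signalling, and Mxi1 is known as a target of the hypoxia-inducible factor HIF, which counters Myc in low oxygen.

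Messenger RNA was measured in primary mouse embryonic fibroblasts (MEFs) of 4 lines, made from e14.5 embryos, infected at passage 3 with an adenovirus that carries Cre and then expanded at least 100-fold. The study asked how cells respond to dipyridyl (DP), an iron chelator that mimics hypoxia, and to trichostatin A (TSA), an inhibitor of histone deacetylases, when the coactivators CBP and p300 lack their CH1 domain, the part that binds HIF. Each line gave 1 array with ethanol (EtOH) vehicle, 1 with DP at 100 µM, 1 with TSA at 100 ng/ml and 1 with TSA followed after 30 min by DP, with lysis 3 h after the last agent, under normoxia. The control lines were flox1 (CBP+/flox) and flox2 (p300 +/flox). The triCH1 lines were triCH1flox1 (CBP CH1/flox;p300 CH1/CH1) and triCH1flox2 (CBP CH1/CH1;p300 CH1/flox), where CH1 stands for an allele that lacks the domain. All 4 lines, the controls included, thus carried a conditional allele and received Cre. A class held 2 lines of different genotype with no repeat cultures, so the 8 groups of class and treatment held 2 arrays each. For treatment changes, SEs and p-values came from 1 linear model (limma) over all 16 arrays. Its error was the spread left after group means and line levels, moderated with that of all probe sets tested. This differs from the spread of the changes printed for single lines, and the p-values speak for these lines only.

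Scaled to a trimmed mean of 500, the arrays had median signals of 103 to 154, and their number limits the precision of every value. The vehicle array of flox1 stood apart, with a ratio of 3' to 5' Gapdh control signal of 2.59 against 0.907 to 1.26 on the other 15 arrays, and its signal of 18S ribosomal RNA was 6001. The DP array of flox2 had an 18S signal of 4298, and the other 14 arrays had 927.6 to 1806. Of the 9 fibroblast markers looked up, 9 passed the filter, with a summed signal of 127151 to 160587. Of 4 markers each, 2 passed for epithelium (sum 366 to 1643), 2 for macrophages (488 to 722), 2 for neural cells (352 to 1065), 2 for skeletal muscle (5020 to 10360, led by Acta1) and 0 for endothelium (91.9 to 459). Crebbp, which encodes CBP, had mean signals over the treatments of 993 and 952 in flox1 and triCH1flox1, where CBP is conditional, and 1350 and 1470 in flox2 and triCH1flox2. Ep300, which encodes p300, had 436 and 555 in flox2 and triCH1flox2 against 836 and 987 in flox1 and triCH1flox1. Egln3, a hypoxia-induced prolyl hydroxylase used as a check of DP, rose 13.5-fold in control lines (limma adjusted p = 1.22e-08) and 3.24-fold in triCH1 lines (limma adjusted p = 4.64e-04). Bnip3, the other check of DP, rose 12.5-fold (limma adjusted p = 6.61e-11) and 8.92-fold (5.80e-10). The log2 difference, triCH1 minus control, passed for Egln3 (-2.06, limma adjusted p = 0.0236) but not for Bnip3 (-0.48, 0.965). Cdkn1a, which deacetylase inhibitors are known to raise, had a log2 change of -0.28 with TSA (limma adjusted p = 0.0464). Xist ran from 1751 to 5389 in triCH1 lines and from 10.1 to 111 in control lines, and Eif2s3y, on the Y chromosome, from 8.9 to 82.9 and from 974 to 1519, so that sex pattern and CH1 class cannot be told apart here.

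TSA changed 8 of the 21 tested probe sets of the network, 5 upward and 3 downward, where 22.2% of all probe sets tested passed. Both tested probe sets of Mxi1 rose, as did 1 each of Mxd1, Mlx and Mxd3, and 1 each of Myc, Mga and Mxd4 fell. Apart from Mxi1, and Myc with its 1 probe set, each of these genes had other tested probe sets that did not pass. DP, averaged over the 4 lines, changed 2 of 21, where 1.19% of all probe sets passed, and both of these were probe sets of Mxi1 and rose. The dimmer of them, 1425732_a_at, entered the tests only through arrays with DP. The median log2 change of the 21 was 0.06 with TSA and -0.03 with DP, against 0.02 and -0.01 over all probe sets tested. Changes are on the scale of log2(signal + 50), which understates those of dim probe sets, and a probe set passed when its p, with Benjamini-Hochberg adjustment over all 19895, was under 0.05. Both comparisons use the same vehicle arrays. In bulk RNA of this kind a smaller number of cells of a type and less RNA per cell cannot be told apart.

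**Figure D1:**
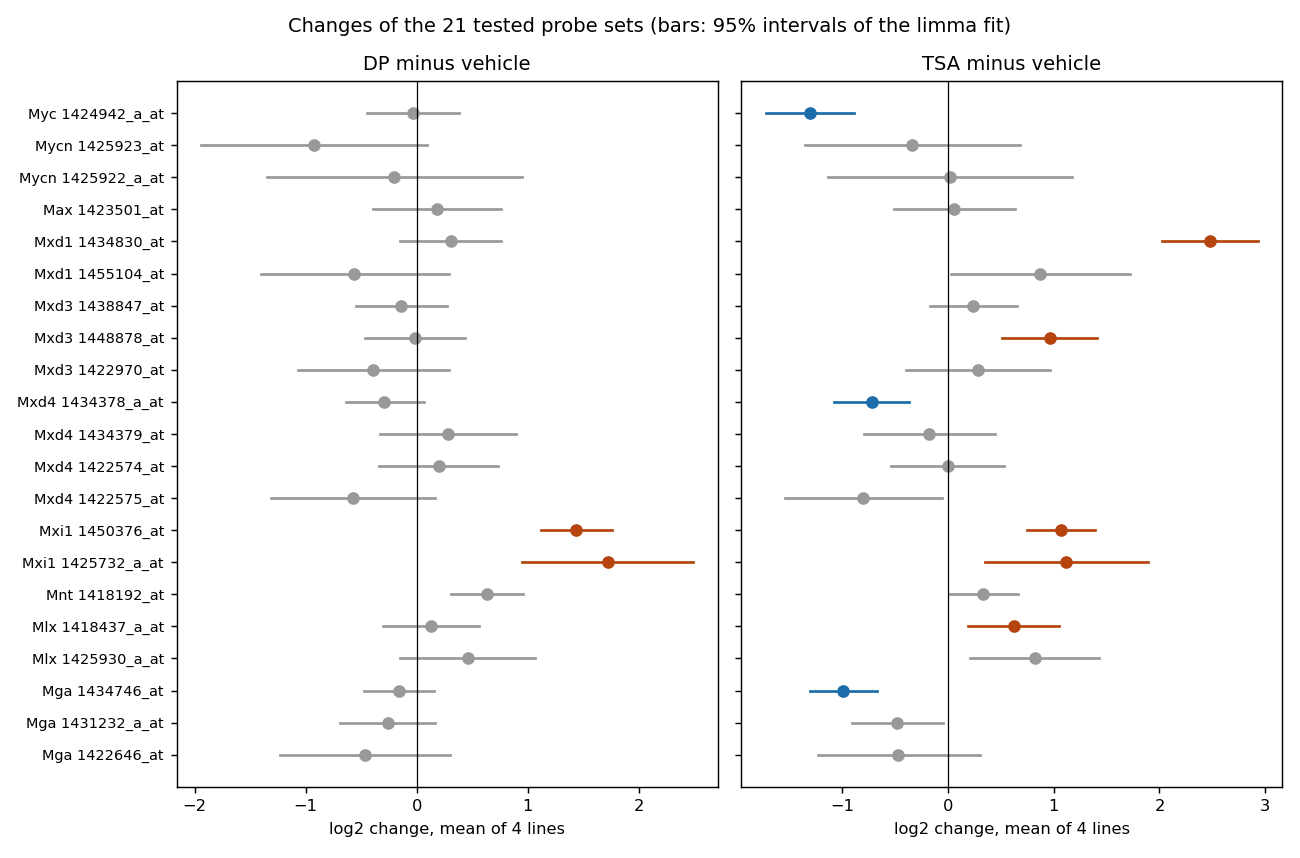
Log2 change (x axis, log2 of signal + 50) of each of the 21 tested probe sets (y axis) with DP and with TSA, each against vehicle, as the mean of 4 lines with the 95% interval of the limma fit. Coloured points passed (orange rose, blue fell) and grey points did not. With DP the 2 probe sets of Mxi1 stand at 1.44 and 1.72, and with TSA the points reach from -1.30 for Myc to 2.48 for Mxd1.

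Myc, the activator of the network that MEFs express, fell with TSA. Its 1 probe set (1424942_a_at) had vehicle signals of 369 in flox1, 918 in flox2, 1191 in triCH1flox1 and 631 in triCH1flox2. With TSA they were 121, 220, 471 and 338 in the same order. The signal was lower with TSA in each line, although the 471 of triCH1flox1 was above the vehicle value of flox1, so the groups of 4 overlap. The log2 changes per line were -1.30, -1.85, -1.25 and -0.81, with a mean of -1.30 (2.47-fold lower, SE 0.195, n = 4 lines, limma adjusted p = 1.89e-04). The low vehicle signal of flox1 was on the array with the high Gapdh ratio, and without that array the mean change was -1.50 (limma adjusted p = 1.18e-04).

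DP by itself moved the Myc signal in no common direction. On the DP arrays it was 557, 693, 807 and 763 in flox1, flox2, triCH1flox1 and triCH1flox2, so it was above vehicle in flox1 and triCH1flox2 and below it in the other two. The mean log2 change was -0.03 (95% interval -0.45 to 0.38, n = 4 lines, limma adjusted p = 0.968). When DP followed TSA, the signals were 312, 410, 397 and 434. These lay below every DP value, and the log2 change for TSA added to DP was -0.78 (1.72-fold lower, SE 0.195, n = 4 lines, limma adjusted p = 0.00836). Without triCH1flox1 it was -0.73 and did not pass (limma adjusted p = 0.0675). Against TSA alone the same arrays were higher in 3 of 4 lines, by a mean of 0.49 that did not pass (95% interval 0.07 to 0.90, limma adjusted p = 0.885).

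Mycn, the relative of Myc best known from neural and other embryonic progenitors, was dim. The brighter of its 2 tested probe sets (1425923_at) had a median signal of 79.2 over the 16 arrays and a range of 15.5 to 262, and the other (1425922_a_at) a median of 39.6 and a highest value of 271. Each reached 200 on only 2 arrays. The first was lower with DP in all 4 lines, and its vehicle signals of 78.4 to 209 did not overlap its DP signals of 22.5 to 69.7, as was so downward for 1.76% of all probe sets, but the log2 change of -0.92 did not pass (SE 0.477, n = 4 lines, limma adjusted p = 0.478). Neither probe set passed in any of the 10 comparisons.

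Max, the partner that Myc, Mxd and Mga proteins share, did not pass in any comparison. Its 1 probe set (1423501_at) had mean signals of 539 ± 102 (SD, n = 4 lines) with vehicle, 616 ± 84.8 with DP, 617 ± 279 with TSA and 727 ± 190 with both agents. The lowest of the 16 values, 225, was that of flox2 with TSA. The log2 change with TSA was 0.06, with a 95% interval of -0.51 to 0.63, and the change with DP was 0.18, with an interval of -0.39 to 0.76.

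**Figure D2:**
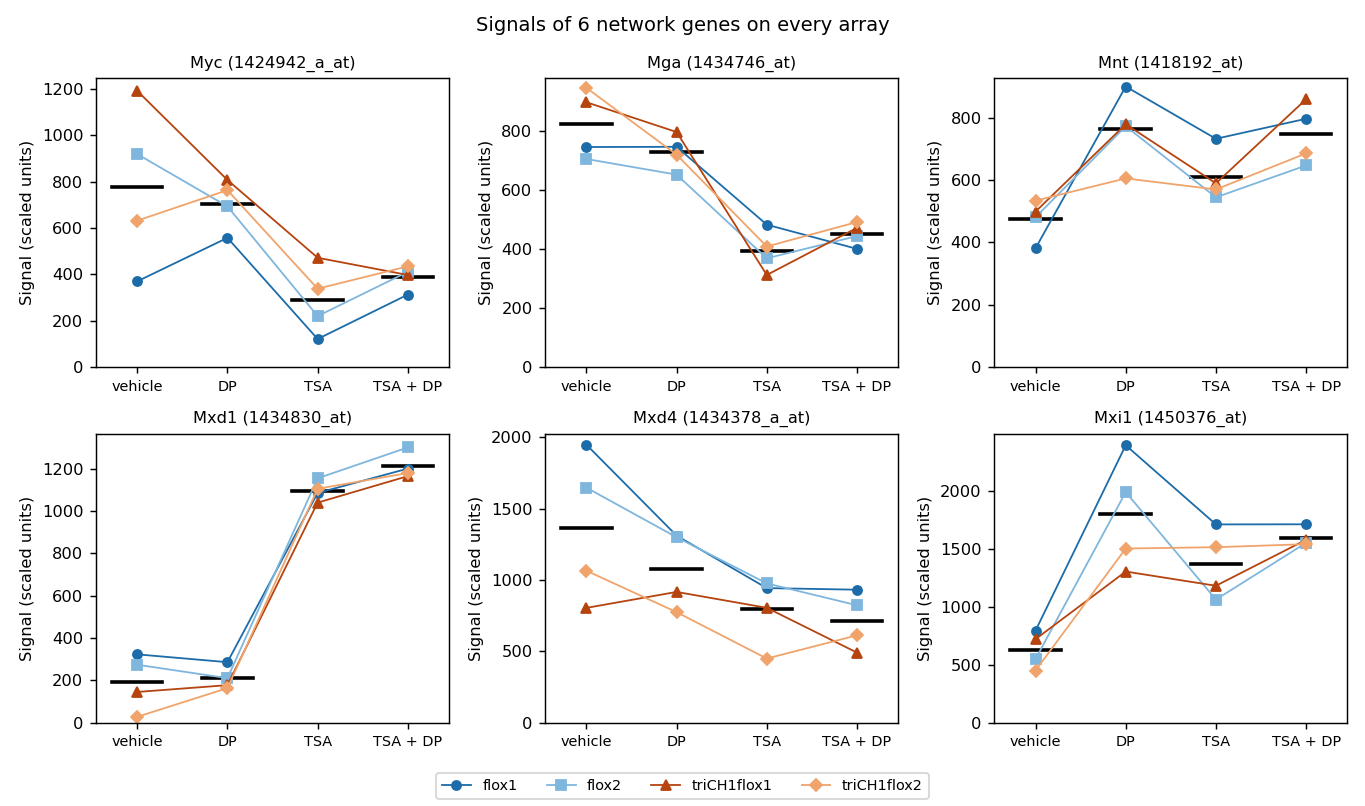
Signal (y axis, scaled units, linear from 0) of 6 network genes on every array, by treatment (x axis). Points are single arrays, lines join the arrays of 1 cell line, and black bars are means of 4 lines. Mxd1 lies between 26.9 and 322 without TSA and between 1040 and 1301 with it.

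Mxd1 encodes the founding Mxd repressor, which rises as many cell types stop dividing and differentiate. It had the largest change of the 21 with TSA. Its brightest probe set (1434830_at) had vehicle signals of 322 in flox1, 273 in flox2, 144 in triCH1flox1 and 26.9 in triCH1flox2. On the TSA arrays they were 1086, 1155, 1040 and 1106. The 4 TSA values lay close together and well above every vehicle value, and the mean log2 change was 2.48 (5.56-fold, SE 0.213, n = 4 lines, limma adjusted p = 1.31e-06). Among all probe sets tested, 11.1% were higher with TSA with no overlap between the 4 arrays and the 4 vehicle arrays, as were 5 of the 21.

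Mxd1 did not pass with DP, either alone or after TSA. The DP signals of 1434830_at were 285, 210, 177 and 163 in flox1, flox2, triCH1flox1 and triCH1flox2, with a log2 change over 4 lines of 0.31 (95% interval -0.15 to 0.76, limma adjusted p = 0.621). With both agents they were 1201, 1301, 1165 and 1180, above TSA alone in each line but by a mean log2 change of only 0.14 (95% interval -0.31 to 0.59, limma adjusted p = 0.983). TSA added to DP gave 2.31 (4.95-fold, SE 0.213, n = 4 lines, limma adjusted p = 2.15e-06). A dimmer probe set, 1455104_at, rose in that comparison by 1.23 (SE 0.400, limma adjusted p = 0.0358). It reached 200 on 5 arrays, all of them with TSA, so it entered the tests only through the arrays where it is high. Its call was lost without flox2 (0.54), triCH1flox1 (1.50), triCH1flox2 (0.95) or the DP array of flox2 (0.93). The same was so with no filter, without the variance trend, without the line term and with a term for the array series.

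Mxi1 encodes the Mxd repressor known as a HIF target, and it rose with DP in both classes of lines. It was the 1 network gene that passed in the control lines, where 1.03% of all probe sets passed, and the 1 that passed in the triCH1 lines, where 0.417% did. Its brightest probe set (1450376_at) had vehicle signals of 794 in flox1, 548 in flox2, 720 in triCH1flox1 and 449 in triCH1flox2. With DP they were 2396, 1991, 1304 and 1503. Every DP value was above every vehicle value, and both control lines were higher with DP than both triCH1 lines.

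In the control lines the log2 change of Mxi1 with DP was 1.65 (3.14-fold, SE 0.213, n = 2 lines, limma adjusted p = 3.23e-04), and in the triCH1 lines it was 1.23 (2.34-fold, SE 0.213, n = 2 lines, limma adjusted p = 0.0144). The difference between the changes, triCH1 minus control, was -0.43 with a 95% interval of -1.07 to 0.21 and did not pass (limma adjusted p = 0.969). By line the changes were 1.54 in flox1, 1.77 in flox2, 0.81 in triCH1flox1 and 1.64 in triCH1flox2. The smallest was thus that of triCH1flox1, the 1 line whose DP and vehicle arrays were of different array series. That series was read from the prefix of the array barcode, and its meaning is not stated. The triCH1 call was lost without triCH1flox2 (0.81, limma adjusted p = 0.804), where triCH1flox1 stands alone and is assumed to vary like the control lines, and without the term for the line (1.23, limma adjusted p = 0.0702).

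The RefSeq table of promoter windows (build GRCm38.p6, 250 bases before to 50 after a transcript start) held 3 windows for Mxi1. They were searched on both strands for ACGTG and GCGTG, the core letters of the HIF site. The bases before 2 of these starts are shown because Mxi1 was the member that rose with DP. The first is chr19:53310256-53310505 and the second chr19:53329163-53329412, both on the plus strand, and capitals mark a match to either motif.
Mxi1 start 1: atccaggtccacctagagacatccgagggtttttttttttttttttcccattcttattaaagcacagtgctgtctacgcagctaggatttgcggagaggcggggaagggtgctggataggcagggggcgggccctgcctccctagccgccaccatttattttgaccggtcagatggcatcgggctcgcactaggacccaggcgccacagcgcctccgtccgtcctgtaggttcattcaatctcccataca
Mxi1 start 2: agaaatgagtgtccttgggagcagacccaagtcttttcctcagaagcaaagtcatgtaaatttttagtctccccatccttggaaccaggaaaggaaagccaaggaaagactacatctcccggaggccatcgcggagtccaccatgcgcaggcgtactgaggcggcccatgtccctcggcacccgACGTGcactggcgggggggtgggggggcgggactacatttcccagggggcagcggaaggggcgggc
The first window held neither motif. The second held 1 ACGTG, 66 bases before the start, and the third, which begins within the last bases of the second window, held 1 at 25 bases before its own start. ACGTG was present in 19.6% of all 32851 windows of the table and GCGTG in 32.4%, so a match of these short letters describes the window only. No source used here says which start a probe set measures.

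The second Mxi1 probe set, 1425732_a_at, was dim, with vehicle signals of 25.8, 13.9, 37.2 and 18.9 in flox1, flox2, triCH1flox1 and triCH1flox2. With DP it had 362, 150, 129 and 183. Again no values overlapped, as for 3 of the 21 probe sets upward with DP against 2.31% of all, and the log2 change over 4 lines was 1.72 (SE 0.363, n = 4 lines, limma adjusted p = 0.025), next to 1.44 for 1450376_at (2.71-fold, SE 0.151, limma adjusted p = 2.23e-05). The dim probe set reached 200 on only 2 arrays, flox1 with DP (362) and triCH1flox2 with both agents (230). It thus passed the filter only through arrays with DP, and its rise with DP is no separate support for that of 1450376_at. The call of the dim probe set was lost without flox1 (1.52, limma adjusted p = 0.261), triCH1flox1 (1.90, 0.112), triCH1flox2 (1.54, 0.342) or the flox1 vehicle array (1.76, 0.0665), and with a term for the array series (1.73, 0.0562). Without the DP array of flox2, the values were 2.02 (limma adjusted p = 0.0259) and, for 1450376_at, 1.40 (5.35e-04).

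TSA also raised Mxi1. The TSA signals of 1450376_at were 1712 in flox1, 1063 in flox2, 1182 in triCH1flox1 and 1515 in triCH1flox2, each above every vehicle value. The log2 change was 1.07 (2.10-fold, SE 0.151, n = 4 lines, limma adjusted p = 1.09e-04), and 1.11 without the flox1 vehicle array (3.24e-04). For 1425732_a_at it was 1.12 (SE 0.363, limma adjusted p = 0.0367), a call that was lost when any 1 line or the flox1 vehicle array was left out, with changes of 0.92 to 1.32 without a line and 1.16 without that array, and also with a term for the array series (1.13, limma adjusted p = 0.0643).

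The rise of Mxi1 with DP was smaller in the presence of TSA. With both agents the signals of 1450376_at were 1713, 1553, 1579 and 1541 in flox1, flox2, triCH1flox1 and triCH1flox2. They were closer together than under any single treatment, with a mean of 1596 ± 79.2 (SD, n = 4 lines) against 1799 ± 492 with DP and 1368 ± 299 with TSA. DP added to TSA gave a log2 change of 0.24 (95% interval -0.08 to 0.56, limma adjusted p = 0.963). The change with DP in the presence of TSA minus that in its absence was -1.20 (SE 0.213, n = 4 lines, limma adjusted p = 0.0195), and Mxi1 was the 1 member probe set that passed this test, where 0.256% of all probe sets passed. All 51 probe sets that passed it had a negative value. The checks of DP had larger ones, -2.27 for Egln3 (limma adjusted p = 2.92e-05) and -2.10 for Bnip3 (2.78e-07).

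That interaction had the same sign in each line: 0.00 with TSA against 1.54 without it in flox1, 0.53 against 1.77 in flox2, 0.40 against 0.81 in triCH1flox1 and 0.02 against 1.64 in triCH1flox2. For 1425732_a_at the interaction was -1.34 and did not pass (SE 0.514, limma adjusted p = 0.791). The call for 1450376_at was lost without flox1 (-1.13, limma adjusted p = 0.388), flox2 (-1.27, 0.101), triCH1flox2 (-0.90, 0.496) or the DP array of flox2 (-1.16, 0.0954). It was also lost without the line term (-1.20, limma adjusted p = 0.106) and without the variance trend (-1.20, 0.23).

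**Figure D3:**
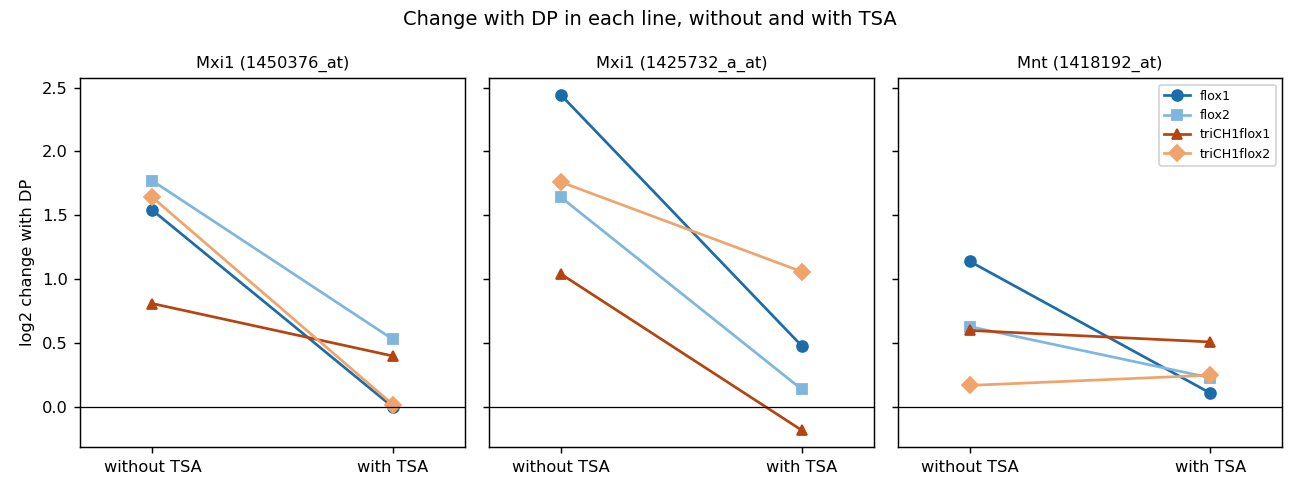
Log2 change with DP (y axis) in each line without and with TSA (x axis), for both tested probe sets of Mxi1 and for the tested probe set of Mnt. Each line joins the 2 changes of 1 cell line. For Mxi1 1450376_at the changes were 0.81 to 1.77 without TSA and 0.00 to 0.53 with it.

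Mnt, the Max-bound repressor that most cells express whether or not they divide, was higher with DP in each line but did not pass. Its tested probe set (1418192_at) had vehicle signals of 381 in flox1, 481 in flox2, 499 in triCH1flox1 and 534 in triCH1flox2, and DP signals of 901, 773, 780 and 606. No DP value was as low as the highest vehicle value. The log2 change was 0.63 over 4 lines (SE 0.153, n = 4 lines, limma adjusted p = 0.0612) and 0.89 in the control lines (SE 0.217, n = 2 lines, limma adjusted p = 0.067). With 1 probe set per gene, which leaves 11481 genes to adjust over, the same changes passed (limma adjusted p = 0.0402 and 0.0466). In the triCH1 lines the log2 change was 0.38, with a 95% interval of -0.08 to 0.84, and the difference from the control lines, -0.51, did not pass (95% interval -1.16 to 0.15, limma adjusted p = 0.965). With TSA the signals were 733, 545, 590 and 570, also above every vehicle value, and the log2 change of 0.33 did not pass (limma adjusted p = 0.139).

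Mxd4 fell with TSA by its brightest probe set. The vehicle signals of 1434378_a_at were 1948 in flox1, 1647 in flox2, 804 in triCH1flox1 and 1064 in triCH1flox2. With TSA they were 943, 976, 804 and 449. The signal was lower in 3 lines and the same in triCH1flox1, and the mean log2 change was -0.72 (1.65-fold lower, SE 0.167, n = 4 lines, limma adjusted p = 0.00544). The call was lost without flox1 (-0.65, limma adjusted p = 0.0759) or triCH1flox2 (-0.43, 0.0965).

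Added to DP, TSA lowered Mxd4 as well. The DP signals were 1310, 1299, 916 and 774 in flox1, flox2, triCH1flox1 and triCH1flox2, and those with both agents were 931, 822, 490 and 611. The log2 change was -0.56 (SE 0.167, n = 4 lines, limma adjusted p = 0.0225), lost without flox1 (-0.60, limma adjusted p = 0.0952), flox2 (-0.52, 0.136), triCH1flox1 (-0.43, 0.0926) or the DP array of flox2 (-0.54, 0.0795). The other 3 tested probe sets of Mxd4 did not pass, with log2 changes with TSA of -0.18 for 1434379_at, 0.00 for 1422574_at and -0.80 for 1422575_at.

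Mxd3, a family member known from cells in S phase, gave different answers by probe set. The dimmer 1448878_at had vehicle signals of 274, 293, 276 and 156 in flox1, flox2, triCH1flox1 and triCH1flox2 and TSA signals of 512, 544, 437 and 605. No values overlapped, and the log2 change was 0.96 (1.94-fold, SE 0.211, n = 4 lines, limma adjusted p = 0.00391), 1.03 without the flox1 vehicle array (0.00733), but 0.69 and not past the threshold without triCH1flox2 (0.0874). The brightest probe set, 1438847_at, had mean signals of 632 ± 75.8 (SD, n = 4 lines) with vehicle and 762 ± 152 with TSA, and its log2 change of 0.24 did not pass (limma adjusted p = 0.421). The third, 1422970_at, had 0.28 with TSA (limma adjusted p = 0.594).

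When TSA was added to DP, 1448878_at rose by 0.76 on the log2 scale (limma adjusted p = 0.0162) and 1422970_at by 0.97 (0.0376), while 1438847_at had 0.30 and did not pass (0.301). The first call was lost without flox1 (0.77, limma adjusted p = 0.0727), flox2 (0.74, 0.0858) or triCH1flox1 (0.61, 0.121). The second was lost without flox1 (0.79, limma adjusted p = 0.15), flox2 (1.15, 0.0514), triCH1flox1 (1.21, 0.0787), triCH1flox2 (0.73, 0.291) or the DP array of flox2 (1.07, 0.0594).

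Mga, which tethers Max to a polycomb-type complex, fell with TSA. Its brightest probe set (1434746_at) had vehicle signals of 747 in flox1, 706 in flox2, 899 in triCH1flox1 and 948 in triCH1flox2, and TSA signals of 483, 369, 312 and 409. All 4 TSA values were below all 4 vehicle values, as was so downward for 2 of the 21 probe sets and for 8.81% of all. The log2 change was -0.99 (1.98-fold lower, SE 0.148, n = 4 lines, limma adjusted p = 1.95e-04), and it passed without the flox1 vehicle array as well (8.11e-04).

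With DP the Mga signals were 747, 653, 798 and 721 in flox1, flox2, triCH1flox1 and triCH1flox2, and with both agents 401, 444, 472 and 492. DP alone gave a log2 change of -0.16 that did not pass (95% interval -0.47 to 0.16), and TSA added to DP gave -0.63 (1.55-fold lower, SE 0.148, n = 4 lines, limma adjusted p = 0.00541). The latter was lost without flox1 (-0.56, limma adjusted p = 0.0647) or triCH1flox1 (-0.59, 0.0665). Of the other tested probe sets of Mga, 1431232_a_at had -0.48 with TSA (limma adjusted p = 0.106) and 1422646_at had -0.47 (0.397).

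Mlx, the partner of the Mondo proteins, passed narrowly. The vehicle signals of 1418437_a_at were 187 in flox1, 308 in flox2, 308 in triCH1flox1 and 484 in triCH1flox2, and the TSA signals were 511, 520, 527 and 443. With TSA triCH1flox2 was lower and the other lines were higher, and the groups overlap. The log2 change was 0.62 (1.54-fold, SE 0.202, n = 4 lines, limma adjusted p = 0.0369), and 1425930_a_at had 0.82 without passing (SE 0.287, 0.053). The call was lost without flox1 (0.48, limma adjusted p = 0.188), triCH1flox1 (0.42, 0.317), triCH1flox2 (0.82, 0.0606) or the flox1 vehicle array (0.47, 0.161), and with a term for the array series (0.66, 0.051).

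For TSA added to DP, 7 of the 21 probe sets passed, 4 upward and 3 downward, where 23.6% of all probe sets tested passed. They were 2 probe sets each of Mxd1 and Mxd3, which rose, and 1 each of Myc, Mga and Mxd4, which fell. Of these, 1455104_at of Mxd1 and 1422970_at of Mxd3 would not have passed the filter without the arrays with TSA. The count was 3 without flox1, 3 without flox2, 4 without the DP array of flox2, and 1 without triCH1flox1, where only 1434830_at of Mxd1 passed. For TSA against vehicle the count of 8 became 5 without flox1 and 4 without triCH1flox2, and the latter 4 were the brightest probe sets of Myc, Mga, Mxd1 and Mxi1. The changes in these comparisons come from different arrays, but both rest on the same 4 lines. Their p-values also share 1 estimate of error from all 16 arrays. Over all probe sets the share called fell in these settings too. For TSA added to DP it was 15.6% without flox1 and 16.3% without flox2. It was 18.1% without the DP array of flox2 and 13.7% without triCH1flox1. For TSA against vehicle, 22.2% became 14.1% without flox1 and 12.5% without triCH1flox2.

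For DP added to TSA, 0 of the 21 passed in limma, where 0.136% of all probe sets did. An unadjusted limma p under 0.05 was found for 1 of the 21 and for 1067 of all 19895. The log2 changes of the 21 ran from -0.61 to 0.49, and the highest was that of Myc. Ndrg1, a gene that Myc is known to repress, did pass in this comparison, with a log2 change of 0.81 (SE 0.129, n = 4 lines, limma adjusted p = 0.0122).

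The classes were compared next. For the difference in the change with DP between triCH1 and control lines, 0 of the 21 probe sets passed in limma, where 0.0151% of all passed. Of the 21, 3 had an unadjusted limma p under 0.05, as did 976 of all 19895. Those 3 were 1422970_at of Mxd3 (1.90, limma adjusted p = 0.965), 1434830_at of Mxd1 (1.08, 0.965) and 1448878_at of Mxd3 (0.94, 0.965). For the change with TSA, 0 of 21 passed in limma, as did 0% of all probe sets. An unadjusted limma p under 0.05 was found for 1142 of all 19895 and for 1 of the 21. The latter was 1434830_at of Mxd1 (1.44, 95% interval 0.54 to 2.35, limma adjusted p = 0.825). Its TSA signals were alike in the classes and its vehicle signals were not, at 298 ± 34.6 (SD, n = 2 lines) in flox1 and flox2 and 85.7 ± 83.2 in the triCH1 pair. The dimmer Mxd1 probe set, 1455104_at, ran the other way, with vehicle signals of 81.2 ± 93.8 and 181 ± 13.2 (SD, n = 2 lines each) and differences of -1.26 in the change with TSA (limma adjusted p = 0.828) and -1.43 in that with DP (0.965). The median SE of these differences was 0.505 over the 21 probe sets. The 1.90 of 1422970_at for DP had an SE of 0.64 and the 1.44 of 1434830_at for TSA one of 0.425, and neither passed. Egln3 did pass for DP, at -2.06 with an SE of 0.287. The lack of calls among the 21 thus does not show that the classes responded alike.

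In level over the 4 treatments, 0 of the 21 differed between the classes in limma's test of line means, where 0.0854% of all probe sets passed. In that test 6 of the 21 had an unadjusted p under 0.05, as did 1975 of all 19895. The smallest adjusted p was that of Mxd4 1434378_a_at, for which both control lines lay above both triCH1 lines under every treatment and whose log2 difference, triCH1 minus control, was -0.69 (SE 0.129, n = 2 lines per class, limma adjusted p = 0.155). The probe sets 1434379_at and 1422574_at of Mxd4 had -0.57 and -0.82, and 1422575_at had -0.05. Myc had 0.52 (SE 0.223, limma adjusted p = 0.492) and the brightest probe set of Mxd1 -0.52 (limma adjusted p = 0.397). Without flox2, Mxd4 and Myc passed (-0.74, limma adjusted p = 0.0367, and 0.84, 0.047), with flox1 standing alone for the control class and assumed to vary like the triCH1 lines. The line number goes with the conditional gene, CBP in flox1 and triCH1flox1 and p300 in the other two. With that number as a block, Mxd4 1434378_a_at passed (limma adjusted p = 0.0117), as did 500 probe sets in all, not 17. Sex moved with class in these lines, and its part was not tested.

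The letters CACGTG, at which Max dimers bind, occurred in the promoter windows of 4 members. RefSeq windows were held for 9 of the 10 members, all but Myc, and there were 11 in all. CACGTG was found in 4 of the 11 (36.4%) and in 7.15% of all 32851 windows. The stretches of 41 bases around it are shown because these genes code for the proteins that bind such sites. Capitals mark the motif, which reads the same on both strands. The stretches are chr5:34187909-34187949 on the minus strand, chr11:74830781-74830821 and chr11:101087230-101087270 on the plus strand, and chr12:76962231-76962271 on the minus strand, in the order below, all in build GRCm38.p6.
Mxd4: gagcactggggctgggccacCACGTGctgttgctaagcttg
Mnt: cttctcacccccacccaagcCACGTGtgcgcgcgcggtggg
Mlx: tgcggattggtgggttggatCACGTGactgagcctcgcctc
Max: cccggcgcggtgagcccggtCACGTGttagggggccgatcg
The motif began 219, 123, 40 and 3 bases before the start in Mxd4, Mnt, Mlx and Max. Since CACGTG holds ACGTG on each strand, these 4 windows are also among the 7 member windows with ACGTG (63.6%), and the others were those of Mga and of 2 starts of Mxi1. GCGTG was in 4 of 11 (36.4%). The 4 genes with CACGTG did not move alike, as with TSA Mxd4 fell, Mlx rose, and Max and Mnt did not pass.

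Other genes of the pathway were taken from 5 lists and described by the brightest probe set of each gene. The first list held other dimer partners of the network and also the Usf genes, whose proteins bind E-boxes but are not such partners. With TSA, 2 of its 4 tested genes rose and 1 fell. This compares with 22.2% of probe sets in all and 26% of all 11481 genes, each likewise taken by its brightest probe set. Mycl, the third Myc protein, had a log2 change of 1.35 (SE 0.357, limma adjusted p = 0.0128). Mlxip, the Mondo partner of Mlx, had 0.76 (SE 0.127, limma adjusted p = 4.81e-04), and Usf2, another protein that binds E-boxes, had -0.54 (limma adjusted p = 0.015). When TSA was added to DP the same 3 passed in the same directions (1.09, 1.12 and -0.54). With DP, 0 of 4 passed.

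Among 12 tested cofactors of Myc and Mxd proteins, 3 rose and 2 fell with TSA, against the 26% of genes called in all. Sin3a, the scaffold through which Mxd proteins hold deacetylases, had a log2 change of 0.72 (SE 0.146, limma adjusted p = 0.00215), and Hdac1, 1 of those deacetylases, had 0.37 (0.0149). Ruvbl2, an ATPase of Myc-bound chromatin complexes, had 0.66 (0.00116), and Kat5, an acetyltransferase of such complexes, had -0.74 (0.0208). TSA added to DP gave 0.72 for Sin3a (limma adjusted p = 0.00192), 0.41 for Hdac1 (0.00865), 0.50 for Wdr5 (0.0129) and -0.51 for Kat2a (0.0155), again 3 up and 2 down of 12, where 27.7% of all genes were called. With DP over 4 lines 0 of 12 passed, and in the control lines, where 1.15% of genes were called, Ruvbl2 did (0.81, limma adjusted p = 0.0342). Of 8 genes of Myc protein turnover, Trim32, a ubiquitin ligase, rose with TSA (0.52, limma adjusted p = 0.00749) and with TSA added to DP (0.55, 0.00481), and 0 passed with DP. The share of 1 in 8 was below the 26% and 27.7% of all genes in these comparisons.

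Genes known to rise with Myc were mixed under TSA, where Myc itself fell. Of the 36 tested, 5 rose, 8 fell and 23 did not pass, where 26% of all genes were called, and the median log2 change was -0.02, against 0.02 over all probe sets. Gnl3, a nucleolar GTPase, had -1.11 (SE 0.0976, limma adjusted p = 1.70e-06), and Nop56, of the small nucleolar ribonucleoproteins, had -0.96 (1.13e-05). Ppat, the first committed enzyme of purine synthesis, had 1.25 (SE 0.137, limma adjusted p = 1.22e-05), and Bop1, which acts in ribosome assembly, had 0.80 (5.46e-05). When TSA was added to DP, 6 rose and 8 fell, where 27.7% of all genes were called, with log2 changes of 1.42 for Ppat, -0.76 for Gnl3, 0.77 for Bop1 and 1.04 for Rrp9. With DP over 4 lines, where 1.42% of all genes were called, 2 of 36 rose, which were Tfrc, the transferrin receptor (0.79, limma adjusted p = 5.72e-05), and Ldha, lactate dehydrogenase A (0.66, 5.55e-04). Both are also known targets of HIF. In the control lines Nop56 fell as well (-0.72, limma adjusted p = 0.0259).

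Of the 8 genes known to fall with Myc, 4 rose and 2 fell with TSA, where 26% of all genes were called, with a median log2 change of 0.25. Txnip, a restraint on glucose uptake, had 1.33 (SE 0.133, limma adjusted p = 5.58e-06), Gadd45a, a stress gene, had 1.06 (4.92e-04), Ndrg2 had 1.31 (0.0059), and Cdkn2b, a cell cycle inhibitor, had -0.64 (4.93e-04). With DP over 4 lines 3 rose and 0 fell, where 1.42% of all genes were called, with a median of 0.45 against -0.01 over all probe sets. Those 3 were Ndrg1 (1.86, SE 0.129, limma adjusted p = 2.53e-07), Ndrg2 (1.45, 0.025) and Cdkn1a (0.52, 0.00845), and the log2 change of Myc there was -0.03. For Ndrg1, also known as a hypoxia-induced gene, the change with DP was 2.64 in control lines and 1.08 in triCH1 lines, a difference of -1.56 that did not pass (SE 0.258, n = 2 lines per class, limma adjusted p = 0.0743). Like Mxi1 it had a negative interaction of TSA with DP (-1.05, limma adjusted p = 0.0174).

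**Figure D4:**
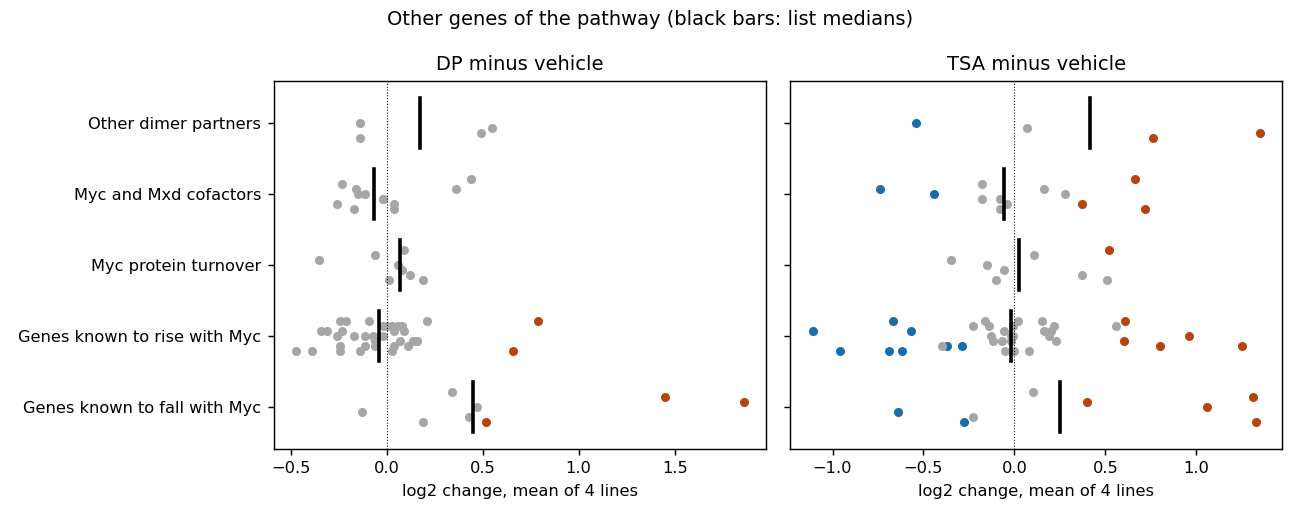
Log2 change (x axis) of the tested genes of the 5 pathway lists (y axis) with DP and with TSA, each against vehicle, as means of 4 lines. Each point is 1 gene, orange where it rose past the threshold, blue where it fell, grey otherwise, and black bars are list medians. Genes known to rise with Myc have medians of -0.04 with DP and -0.02 with TSA. The list labelled other dimer partners also holds the Usf genes, whose proteins bind E-boxes but are not such partners.

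The genes whose signals followed Myc most closely over the 16 arrays, after the mean of each line was subtracted, were Nfatc4 (Pearson r = 0.956), Inppl1 (0.949), Bag3 (0.948), Rpap2 (0.945) and Eva1a (0.94). Those closest to Mxi1 1450376_at were Sap30 (0.95), Hk1 (0.94), Mgarp (0.928), Pfkp (0.926) and Pdxp (0.923). These are the highest of 19895 correlations over arrays that share lines and treatments, and they are given as a description.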

How the data were processed

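RNA of 4 MEF lines under 4 treatments was measured on 16 Affymetrix arrays. Per the labels, the authors deposited signals from the statistical algorithm of Affymetrix, an intensity per probe set that was scaled to a target of 500 per array. The 2% trimmed means were checked and met it. The software version is not given in the sources used here. Of 45101 probe sets, 64 were controls, 34945 had 1 gene symbol, 932 had several and 9160 had none, and only those with 1 were used.

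Values were analysed as log2(signal + 50). Probe sets with a signal of at least 200 on at least 2 arrays, 19895 in all, entered a linear model in limma 3.58.1 (R 4.3.3). It had 8 group means, the line inside its class as a block, and a variance trend with mean signal. The degrees of freedom were 6 residual and 9.58 prior. The class difference was tested on 4 line means. Benjamini-Hochberg adjustment ran over all probe sets in each of 10 comparisons, several of which share arrays. The block follows from each cell line having been given all treatments. Deviations from group means correlated within a line at 0.105 to 0.275 (control class, 6 pairs) and 0.0454 to 0.317 (triCH1 class, 6 pairs). The labels name no array series, but they hold array barcodes, whose prefix was read as one. What the prefix stands for is not stated. By it, 4 arrays (3 of triCH1flox1, all but vehicle, and that of flox2 with both agents) were of a second series, which was tried as a term. Steps were tested on simulated data.

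All members were named with all probe sets; from each list, up to 4 genes per comparison past the threshold with the smallest adjusted p; and the 5 genes most like Myc and Mxi1. Xist and Eif2s3y were added after their values were seen. Members and lists were chosen with earlier results of these data known. Promoter sequences are those of RefSeq. Alternatives were the pseudocount, the filter, quantile normalization, the variance trend, 1 probe set per gene, the line term, the array series and leaving out lines or arrays. Python 3.11.15 with matplotlib 3.10.9 drew the figures.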

Additional observations from a re-analysis of the deposited data

Results flagged for a closer look

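In 5 results both control lines moved one way and both triCH1 lines the other when an agent was added to the other agent. They were sought among all 21 tested probe sets, for TSA added to DP and for DP added to TSA. With 4 lines such a pattern of signs also arises where the classes do not differ. How often the other probe sets on the array showed such a pattern was not counted, so the 5 are given as a description. The difference between the classes was not tested for any of the 5. When TSA was added to DP, Mxi1 1450376_at had log2 changes of -0.47 in flox1 and -0.35 in flox2 against 0.27 in triCH1flox1 and 0.03 in triCH1flox2, a difference (triCH1 minus control) of 0.56. In the same comparison Mnt 1418192_at had -0.17 and -0.24 against 0.13 and 0.17, a difference of 0.35, and Mxd4 1422574_at had -0.22 and -0.35 against 0.13 and 0.28, a difference of 0.49. When DP was added to TSA, Mxd4 1422574_at had -0.11 and -0.18 against 0.12 and 0.83, a difference of 0.62. There Mlx 1425930_a_at had -0.49 and -0.32 against 0.86 and 0.03, a difference of 0.85. With 2 lines per class, none of these comparisons had a called change over the 4 lines for its probe set.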

How the results depend on the processing

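The 20 called results were recomputed under 16 alternatives. Of 290 such values, 233 stayed past the threshold, 57 did not and 0 changed sign; of 2659 values of results that had not passed, 10 passed. Calls kept under all 15 alternatives that could be run on them were those of Mxi1 1450376_at with DP over 4 lines (1.23 to 1.65), with DP in the control lines (1.47 to 1.77) and with TSA (0.83 to 1.31), of Mxd1 1434830_at with TSA (1.80 to 2.83) and with TSA added to DP (1.80 to 2.48), and of Myc (-1.50 to -0.98) and Mga 1434746_at (-1.05 to -0.79) with TSA. With 1 probe set per gene the count of members past the threshold was 2, not 1, for DP in the control lines, and 4, not 7, for TSA added to DP. The latter drop is fixed by the setting, which leaves out the dimmer probe sets of Mxd1 and Mxd3 that were among the 7. With no variance trend, and with no replicate block, the counts for DP in the triCH1 lines and for the interaction were 0, not 1. With a term for the array series the count for DP over 4 lines was 1, not 2. It was also 1 with a signal of at least 200 asked on 8 arrays, a filter that removes 1425732_a_at of Mxi1 without a test. With lines or arrays left out, the counts were 0 to 1 for DP in the triCH1 lines, 1 to 2 for DP over 4 lines, 4 to 8 for TSA, 1 to 7 for TSA added to DP, 0 to 1 for the interaction and 0 to 2 for the class difference. Without the DP array of flox2, chosen after seeing the data, 4 passed for TSA added to DP and 0 for the interaction. The replicate number shared by the classes, as a block, gave 1 call, not 0, between the classes (Mxd4 1434378_a_at, limma adjusted p = 0.0117); same-numbered lines of the 2 classes, which share the conditional gene but are different lines, had correlations of -0.0172 to 0.137. Over all probe sets the count of calls ran, under other settings and then without a line or array, from 116 to 220 and 69 to 525 for DP in the control lines (204 as reported), 24 to 85 and 16 to 99 for DP in the triCH1 lines (83), 0 to 6 and 0 to 40 for their difference (3), 160 to 258 and 126 to 390 for DP over 4 lines (236), 3241 to 4525 and 2489 to 4347 for TSA (4409), 0 and 0 to 73 for its difference between classes (0), 6 to 26 and 12 to 29 for DP added to TSA (27), 3437 to 4800 and 2722 to 5099 for TSA added to DP (4686), 16 to 64 and 9 to 58 for the interaction (51), and 3 to 500 and 3 to 402 between the classes (17). The causes were not tested.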
